A study of Rattus norvegicus with 65 samples.

Results

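The orexin and melanin-concentrating hormone (MCH) systems were followed through 5 genes, chosen by their symbols in the count table: the peptide precursors Hcrt (prepro-orexin) and Pmch (prepro-MCH), the orexin receptors Hcrtr1 and Hcrtr2, and the MCH receptor Mchr1. All 5 were among the 38513 genes listed and among the 21871 that passed the low-count filter. The study asked how gastric bypass, food restriction and gut hormone treatment alter gene expression in the rat hypothalamus, and sequenced messenger RNA of 65 whole hypothalami from male Wistar rats in 8 groups. After 6 weeks of high-fat diet from an age of 9 to 10 weeks, animals received Roux-en-Y gastric bypass (RYGB, n = 14), a sham operation (n = 11), chronic food restriction meant to follow the body weight of the RYGB animals (BWM, n = 7), PYY3-36 at 0.1 mg/kg per day by osmotic minipump with subcutaneous saline (n = 4), subcutaneous liraglutide at 0.4 mg/kg per day with saline by minipump (n = 5), both hormones (PYY3-36 + liraglutide, n = 10), or saline by both routes (n = 8). From then on every group but BWM could choose between high-fat and low-fat diet. The abstract of the study lists BWM as a sham operation plus body weight matching, while its methods name only the food restriction. The 6 animals labelled lean are taken here to be the study's group fed low-fat diet only, and their treatment is not described further. Tissue was taken 4 weeks after the intervention, after a fast of 10 h, and the nuclei of the hypothalamus were not separated. The animals were studied in 2 experimental periods, batch A (n = 37) and batch B (n = 28). BWM and lean animals belonged to batch A only, and PYY3-36 and liraglutide animals to batch B only. Libraries held between 20041010 and 36539941 counts on genes, with a median of 27379945.

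Orexin and MCH are made by separate, intermingled populations of neurons in the lateral hypothalamus that project widely through the brain. Orexin neurons sustain wakefulness and food seeking, and loss of these cells causes narcolepsy. Orexin receptors couple mainly to Gq proteins, whereas the MCH receptor, through which MCH promotes feeding in rodents, couples to Gi and Gq proteins and is found in many regions outside the hypothalamus, including striatum and cortex.

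In the Rnor_6.0 build used for the counts, Hcrt lay on the minus strand at chr10:88669216-88670430, Pmch on the plus strand at chr7:28655206-28656522, Hcrtr1 on the minus strand at chr5:148346029-148355404, Hcrtr2 on the minus strand at chr8:83307684-83421612 and Mchr1 on the plus strand at chr7:122456846-122459324. Pmch lay inside Parpbp, which is transcribed from the opposite strand and had a mean of 0.483 CPM (counts on a gene relative to the TMM-scaled library size). Reads were assigned by strand. No other member overlapped another gene. Promoter sequences of RefSeq (build GRCr8, which is not the build of the counts) matched 3 of the 5 genes. They are shown as the members for which a promoter was matched, and a link between these sequences and the gene levels was not tested. Each run gives the 250 bases before the annotated start, 5′ to 3′ on the minus strand, and capitals mark a match to the TATA box (TATAAA), to the so-called CAAT box (CCAAT) or to the core of the cAMP response element (TGACG), each searched on both strands.
Hcrt, chr10:86191525-86191774: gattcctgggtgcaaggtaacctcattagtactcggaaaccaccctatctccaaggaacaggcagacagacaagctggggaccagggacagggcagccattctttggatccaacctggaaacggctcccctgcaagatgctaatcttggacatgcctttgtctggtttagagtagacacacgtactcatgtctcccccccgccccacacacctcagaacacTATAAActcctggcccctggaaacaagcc
Hcrtr1, chr5:147770851-147771100: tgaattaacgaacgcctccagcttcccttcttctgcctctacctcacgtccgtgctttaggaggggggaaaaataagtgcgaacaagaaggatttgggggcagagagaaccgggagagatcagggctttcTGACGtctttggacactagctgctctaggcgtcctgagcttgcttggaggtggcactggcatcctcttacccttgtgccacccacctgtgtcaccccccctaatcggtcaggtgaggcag
Hcrtr2, chr8:85986406-85986655: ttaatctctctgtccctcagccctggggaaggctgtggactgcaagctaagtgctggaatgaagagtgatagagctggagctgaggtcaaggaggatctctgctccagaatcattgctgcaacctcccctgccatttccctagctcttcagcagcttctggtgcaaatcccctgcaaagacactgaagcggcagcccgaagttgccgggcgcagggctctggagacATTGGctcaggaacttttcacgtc
The Hcrt promoter held TATAAA, which began 29 bases before the start and was found in 12.9% of 33469 rat promoter windows of this length. The Hcrtr1 promoter held TGACG, which began 120 bases before the start (18.2% of windows). The Hcrtr2 promoter held CCAAT on the reverse strand, read here as ATTGG and beginning 24 bases before the start (34.0% of windows). Such matches describe the letters of these windows only.

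Before the groups were compared, the label hypothalamus was checked against 10 genes that define it and are not among the 5: the arcuate peptides Agrp and Pomc, the hormones Avp, Oxt and Trh, the neuropeptide Gal and the transcription factors Sim1, Otp, Nkx2-1 and Rax. Their mean log2(CPM + 1), called the hypothalamus score, ran from 0.8 to 5.86. In 13 of the 65 libraries it was at or under 2.66, and in the other 52 it was 3.04 or more. The 13 libraries came from sham (4 of 11), lean (2 of 6), liraglutide (2 of 5), RYGB (1 of 14), BWM (1 of 7), PYY3-36 (1 of 4), PYY3-36 + liraglutide (1 of 10) and saline (1 of 8). In them Otp had a median of 0.0518 CPM against 9.85 CPM in the other libraries, Avp 2.43 against 340 CPM and Oxt 5.42 against 508 CPM. Rax was at 0 in 9 of 13 and in 10 of the other 52. Each comparison of the 5 genes was therefore also computed without the 13 libraries, an alternative chosen after the data were seen.

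The plot of gene levels against the hypothalamus score shows where the 5 genes stood in these libraries. Hcrt had a median of 0.567 CPM in the 13 libraries with a low score and 75.4 CPM in the other 52. Pmch had medians of 4.14 and 633 CPM. RYGB replicate 6, with 92.7 CPM of Hcrt and 487 CPM of Pmch, and PYY3-36 replicate 2, with 16.0 CPM of Hcrt, stood above the other libraries of low score. Hcrtr1 (4.03 against 8.4 CPM) and Hcrtr2 (1.95 against 4.89 CPM) had lower medians there, and Mchr1 had a higher one (12.6 against 6.87 CPM). After adjustment for group and batch, the score and log2(CPM + 1) of the gene correlated over the 65 libraries with Pearson's r = 0.66 for Hcrt, 0.76 for Pmch, 0.77 for Hcrtr1, 0.56 for Hcrtr2 and -0.76 for Mchr1. These r values describe libraries that share tissue and depth, and within the 52 libraries they were 0.36, 0.41, 0.5, 0.18 and -0.42. Whether the region dissected sets these levels was not tested. In whole tissue, fewer cells of a type and less RNA per cell cannot be told apart.

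**Figure D1:**
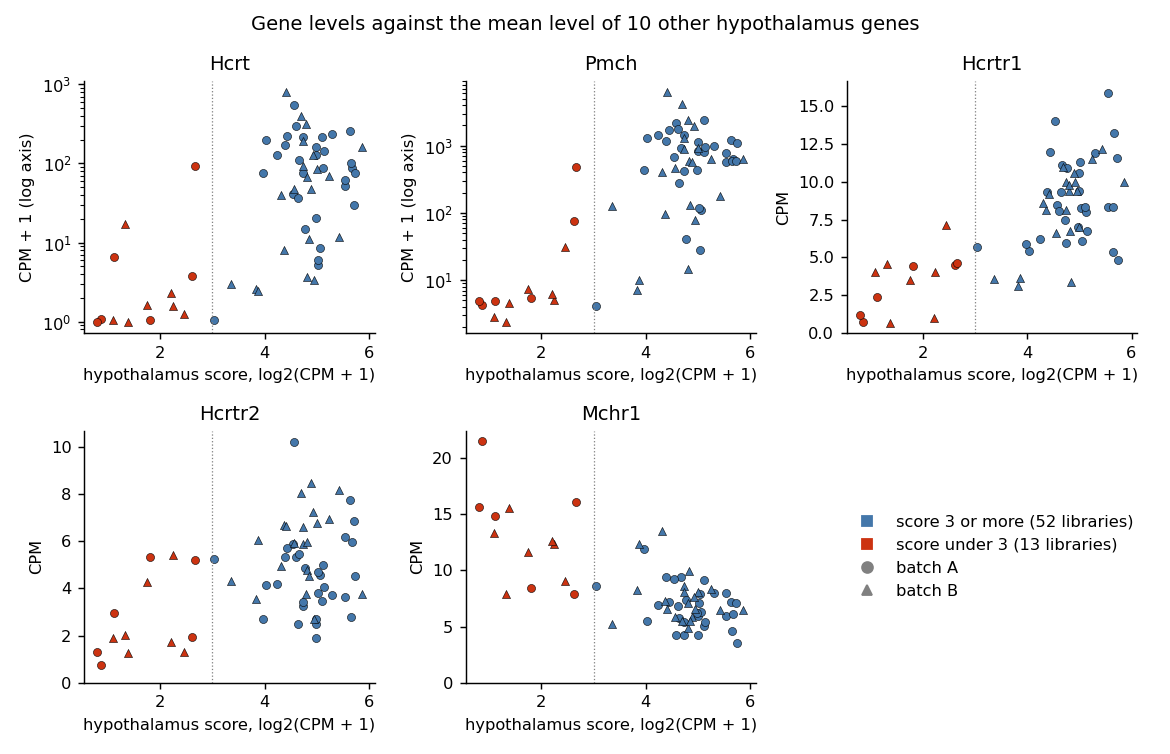
Level of each gene in every library (CPM + 1 on a log axis for Hcrt and Pmch, CPM for the receptors) against the hypothalamus score, the mean log2(CPM + 1) of 10 other hypothalamus genes, with circles for batch A and triangles for batch B. The 13 libraries left of the dotted line at 3 have medians of 0.567 CPM of Hcrt, 4.14 CPM of Pmch and 12.6 CPM of Mchr1, with RYGB replicate 6 apart at 92.7 CPM of Hcrt and 487 CPM of Pmch.

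Per length of exon, the precursors had higher median levels than the receptors. In RPKM, the CPM divided by the exon length in kilobases, the median level was 756 for Pmch (range 1.91 to 8290), 91.8 for Hcrt (0 to 1420), 5.97 for Mchr1 (2.94 to 17.7), 3.31 for Hcrtr1 (0.269 to 6.48) and 1.47 for Hcrtr2 (0.241 to 3.29). Pmch stood above Hcrt in 63 of 65 libraries, Mchr1 above Hcrtr1 in 62, and Hcrtr1 above Hcrtr2 in 60.

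Hcrt differed widely between animals of the same group. In saline it was 51.0, 87.7 and 0.0363 CPM in batch A (replicates 1 to 3) and 0.0452, 6.98, 2.37, 2.0 and 1.6 CPM in batch B (replicates 4 to 8). All 5 saline libraries of batch B were thus low, while those of batch A held both extremes of the group. In PYY3-36 animals, all of batch B, Hcrt was 83.0, 16.0, 91.2 and 47.0 CPM, above every saline library of that batch. In liraglutide animals, also of batch B, it was 193, 401, 0.644, 0.247 and 2.64 CPM, so that 2 libraries were high and 3 lay within the saline range. With both hormones it was 215, 125, 4.26, 172 and 85.5 CPM in batch A and 1.47, 39.1, 0.567, 65.5 and 787 CPM in batch B, and the last of these was the highest value of all libraries.

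Among the surgical and diet groups Hcrt was no steadier. Sham-treated animals had 2.8, 5.52, 550, 253 and 292 CPM in batch A. In batch B the 6 sham libraries ran from 0 to 310 CPM with a median of 10.4 CPM. RYGB-treated animals ran from 4.99 to 233 CPM with a median of 92.7 CPM in batch A (n = 11), and had 67.5, 126 and 159 CPM in batch B. Their range lay inside that of the sham libraries, and no RYGB library fell under 4.99 CPM. In BWM animals Hcrt ran from 0.0649 to 220 CPM with a median of 75.2 CPM (n = 7), and in lean animals from 0 to 143 CPM with a median of 16.8 CPM (n = 6). The 2 libraries with no Hcrt count were sham replicate 6 and lean replicate 2, where 3 counts would correspond to 0.165 and 0.101 CPM. This limit covers counting error only.

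Pmch, the precursor of MCH, showed the same pattern at a higher level. In saline it was 571, 632 and 3.16 CPM in batch A and 1.85, 96, 77.6, 127 and 6.08 CPM in batch B. PYY3-36 animals had 920, 1.42, 898 and 457 CPM, with replicate 2 the lowest of all 65 libraries, and liraglutide animals 1290, 4180, 6.39, 30.1 and 13.6 CPM. With both hormones Pmch was 1420, 829, 27.5, 1180 and 793 CPM in batch A and 9.02, 405, 4.14, 584 and 6170 CPM in batch B. High and low libraries thus occurred in every hormone group and in saline.

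In sham-treated animals Pmch was 74.8, 3.9, 2180, 1200 and 1780 CPM in batch A, and ran from 3.51 to 2380 CPM with a median of 156 CPM in batch B. RYGB-treated animals ran from 109 to 2390 CPM with a median of 688 CPM in batch A and had 631, 1980 and 633 CPM in batch B. All 14 RYGB libraries were at or above 109 CPM, whereas 4 of 11 sham libraries lay under 100 CPM, and these 4 are the sham libraries with a hypothalamus score under 3. BWM animals ran from 3.28 to 1730 CPM (median 1110) and lean animals from 3.84 to 962 CPM (median 234). The single RYGB library with a hypothalamus score under 3 (replicate 6) still had 487 CPM of Pmch and 92.7 CPM of Hcrt.

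The receptors varied less. Hcrtr1, the receptor with preference for orexin-A, had a median of 10.6 CPM in RYGB (4.63 to 15.9), 8.1 CPM in sham (0.658 to 12.2), 5.94 CPM in BWM (0.746 to 12) and 6.29 CPM in lean (1.18 to 10.9). In saline, PYY3-36, liraglutide and PYY3-36 + liraglutide its medians were 6.93, 6.82, 8.11 and 8.16 CPM. The groups overlapped throughout, and the lowest library of RYGB, sham, BWM and lean had a hypothalamus score under 3 in each case. This also held in PYY3-36 and liraglutide, but not in saline or with both hormones.

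Hcrtr2, which binds both orexins, had medians of 4.93 CPM in RYGB (2.79 to 7.24), 4.52 CPM in sham (1.26 to 10.2), 3.41 CPM in BWM (0.746 to 5.71) and 3.39 CPM in lean (1.31 to 5.32). In saline it was 3.96 CPM, in PYY3-36 5.89 CPM, in liraglutide 4.76 CPM and with both hormones 5.14 CPM. Mchr1, the rodent MCH receptor, had medians between 5.49 CPM in BWM and 9.26 CPM in PYY3-36 + liraglutide. Its highest library was BWM replicate 1, with 21.5 CPM, while the other 6 BWM libraries lay between 3.56 and 7.19 CPM. The BWM library stood apart in the other genes too, with 0.0649 CPM of Hcrt, 3.28 CPM of Pmch and a hypothalamus score of 0.86.

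**Figure D2:**
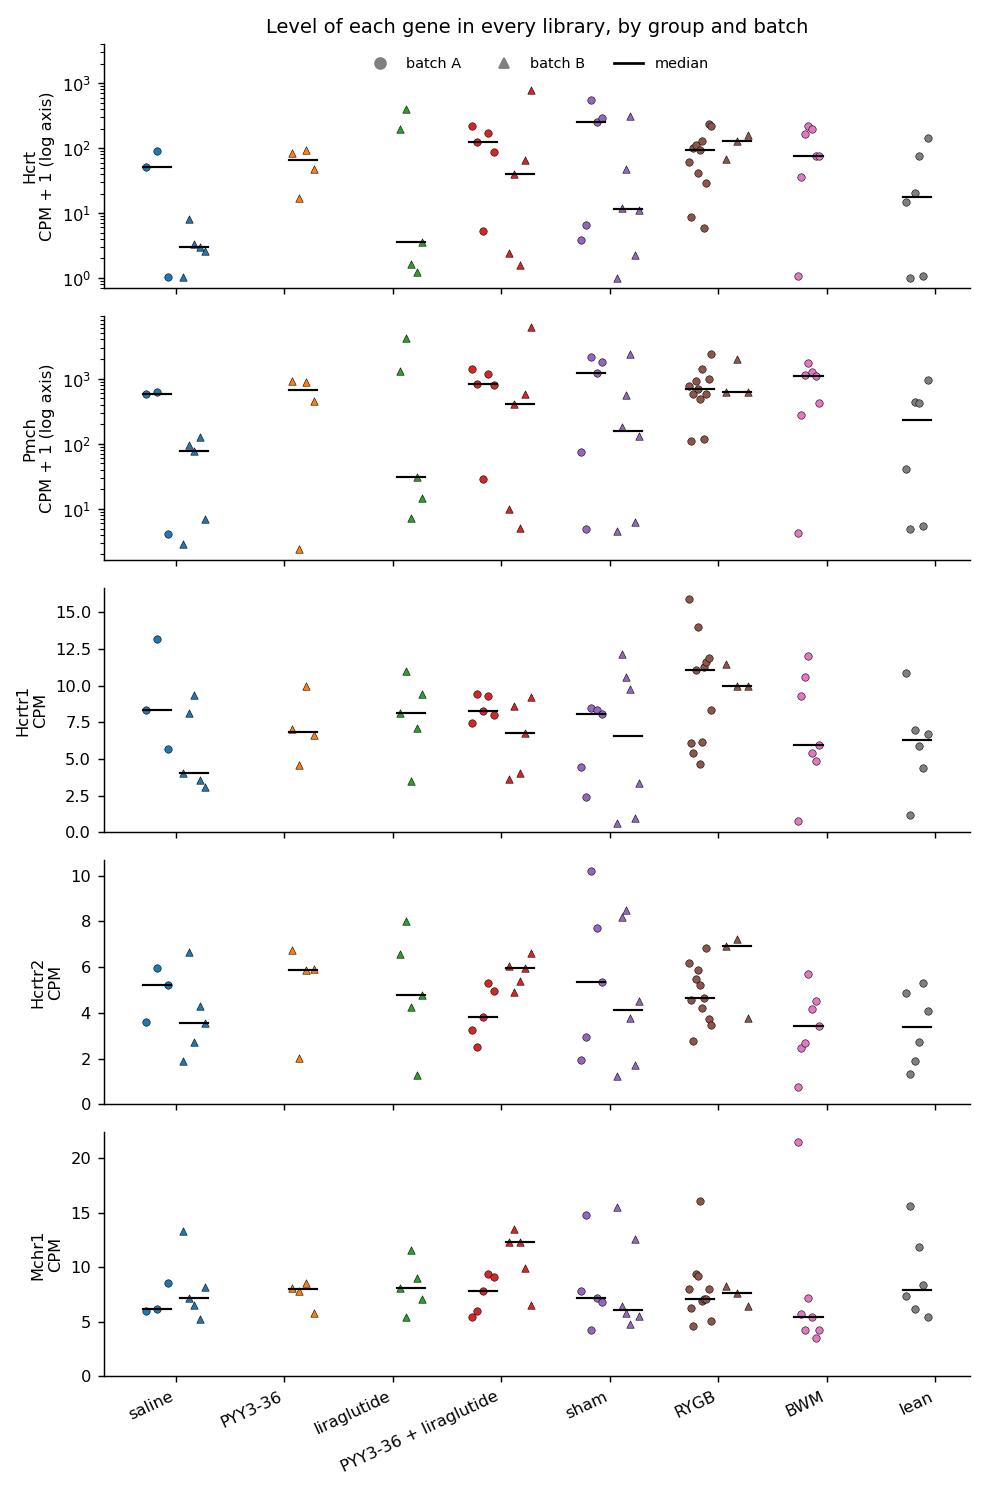
Level of the 5 genes in each of the 65 libraries by group, in CPM + 1 on a log axis for Hcrt and Pmch and in CPM for the receptors, with circles for batch A, triangles for batch B and a bar at the median of each group in each batch. Hcrt and Pmch span several orders of magnitude inside most groups, and Pmch stays at or above 109 CPM in all 14 RYGB libraries.

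The comparison of RYGB with sham asked whether bypass surgery alters the hypothalamus beyond the operation itself. Neither precursor nor any receptor passed the test (0 of 5 genes, edgeR quasi-likelihood test with Benjamini-Hochberg adjustment over all genes), whereas 13% of all tested genes did. At an unadjusted p under 0.05 the count was also 0, against 30% of all genes, and DESeq2 called 0 of 5. Hcrt was 98.1 ± 70.8 CPM in RYGB and 135 ± 187 CPM in sham (mean ± SD, n = 14 and 11), with a fitted log2 difference of -0.46 (95% interval -2.36 to 1.44). Pmch was 879 ± 649 and 773 ± 939 CPM, with a log2 difference of 0.12 (-1.79 to 2.03). The interval of Hcrt reached from 0.195 to 2.71 times the sham level, so that changes within it were not excluded here. Within batch A the difference was -1.23 for Hcrt and -0.33 for Pmch, and within batch B 0.89 and 0.99, so that the sign differed between the batches. Both precursors were above the sham median of both batches together in 12 of 14 RYGB libraries, while their means differed by less than the spread between animals. That median does not keep the batches apart. Within batch A the sham median of Hcrt was 253 CPM, and the highest RYGB library had 233 CPM. For Pmch the medians in batch A were 1200 CPM in sham and 688 CPM in RYGB. Within batch B every RYGB library was above the sham median for both precursors.

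Hcrtr1 had the largest receptor difference between RYGB and sham. It was 9.85 ± 3.33 CPM vs. 6.31 ± 4.06 CPM, with a log2 difference of 0.58 ± 0.33 (SE, interval -0.09 to 1.24, adjusted p = 0.236 by edgeR). Within batch A the log2 difference was 0.61 and within batch B 0.76. It was 0.19 without the 13 libraries of low hypothalamus score (interval -0.29 to 0.67). Such libraries made up 4 of 11 in sham and 1 of 14 in RYGB, and the difference of Hcrtr1 was smaller without them. Hcrtr2 differed by 0.01 (-0.55 to 0.57) and Mchr1 by -0.02 (-0.49 to 0.45), and without the 13 libraries by -0.40 (-0.82 to 0.02) and 0.36 (0.02 to 0.70, adjusted p = 0.137 by edgeR).

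Food restriction gave the same count of 0 of 5 genes in BWM vs. sham, against 0.32% of all genes. At an unadjusted p under 0.05 the count was 0, against 12.3% of all genes, and DESeq2 called 0. Hcrt was 109 ± 84.1 CPM in BWM (log2 difference to sham -0.62, interval -3.03 to 1.79) and Pmch 850 ± 624 CPM (-0.07, -2.46 to 2.32). Hcrtr2 was lowest in BWM and lean, at 3.39 ± 1.61 and 3.36 ± 1.63 CPM vs. 5.1 ± 3.11 CPM in sham. Its log2 difference was -0.56 ± 0.35 in BWM and -0.57 ± 0.37 in lean. These became, without the 13 libraries, -0.77 (interval -1.29 to -0.24) and -0.95 (-1.55 to -0.35), with adjusted p of 0.159 and 0.101 by edgeR. In BWM, 5 of 8 anterior pituitary genes rose against sham (0.311% of all genes rose), Prl by 10.35 and Gh1 by 10.65 on the log2 scale. The pituitary score, the mean log2(CPM + 1) of the 8 genes, was 9.13, 5.15 and 3.11 in BWM replicates 5, 7 and 6, and 0.17 to 0.97 in the other 4, with a highest value of 2.9 in sham. Pomc, a gene of the hypothalamus score, had 1180, 2340 and 2170 CPM in these replicates, and 3.37 to 79.8 CPM in the other 4. Whether pituitary tissue adds to the hypothalamus score was not tested. Lhb no longer passed when the 13 libraries were left out (adjusted p = 0.0501 by edgeR). The part of such tissue in the levels of the 5 genes was not tested.

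In lean vs. sham no gene of the table passed (0% of all genes), and DESeq2 called 0 of 5 members. An unadjusted p under 0.05 in edgeR was found in 0 of 5 members, against 12.2% of all genes. Mean Hcrt was 42 ± 56.8 CPM in lean animals, with a log2 difference of -2.0 ± 1.35 (interval -4.69 to 0.69), and mean Pmch 312 ± 378 CPM, with a log2 difference of -1.52 ± 1.32 (-4.16 to 1.12). In 4 of 6 lean libraries Hcrt was above the sham median of both batches together. The sham median within batch A was 253 CPM, and the highest lean library had 143 CPM. Lean animals belonged to batch A, and the values within that batch were -2.40 for Hcrt and -1.76 for Pmch.

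RYGB and BWM animals were also compared directly. There 0 of 5 genes passed, against 0.343% of all genes, and DESeq2 called 0. At an unadjusted p under 0.05 the count was 0, against 12.6% of all genes. Hcrt differed by 0.16 (interval -2.13 to 2.45) and Pmch by 0.20 (-2.06 to 2.45). Hcrtr1 (0.55 ± 0.38) and Hcrtr2 (0.56 ± 0.33, 13 of 14 RYGB libraries above the BWM median) had larger fitted differences, which did not pass. Without the 13 libraries, of which BWM replicate 1 is 1, these became 0.39 and 0.36, and that of Mchr1 became 0.48 (0.13 to 0.83, adjusted p = 0.165 by edgeR). The 3 comparisons with sham share the sham libraries, and RYGB and BWM enter more than once, so their values are not independent.

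The gut hormone groups were compared with saline, the infused control. PYY3-36 gave 0 of 5 genes called, against 0% of all genes, and 0 by DESeq2. At an unadjusted p under 0.05 the count was 0 of 5, against 7.54% of all genes. Hcrt was 59.3 ± 34.7 CPM with PYY3-36 (n = 4) and 19 ± 32.7 CPM in saline (n = 8), a log2 difference of 2.47 ± 1.55 (interval -0.64 to 5.57). Pmch was 569 ± 434 CPM vs. 189 ± 259 CPM, a log2 difference of 1.97 ± 1.51. Within batch B, where all PYY3-36 animals belonged, Hcrt differed by 4.51 (adjusted p = 0.255) and Pmch by 3.22 (adjusted p = 0.419, both by edgeR). The receptors differed by no more than 0.25 on the log2 scale.

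Liraglutide gave the largest fitted difference of Pmch. No member was called (0 of 5, against 0% of all genes, and 0 by DESeq2). In edgeR 2 of 5, the precursors, had an unadjusted p under 0.05, as did 2.08% of all genes. This p was 0.0251 for Hcrt, and for Pmch a value that rounds to 0.05. Hcrt was 120 ± 178 CPM, a log2 difference of 3.48 ± 1.51 (11.1-fold, interval 1.37-fold to 90.9-fold, adjusted p = 1 by edgeR). Pmch was 1100 ± 1810 CPM, a log2 difference of 2.92 ± 1.46 (7.57-fold, adjusted p = 1 by edgeR). The means rested on replicates 1 and 2, since the other 3 liraglutide libraries had 2.64 CPM or less of Hcrt and 30.1 CPM or less of Pmch. The median of Hcrt was 2.64 CPM with liraglutide and 2.18 CPM in saline. Without the libraries of low hypothalamus score the differences were 3.80 and 3.32, and within batch B 5.53 and 4.18. Leaving out 1 library at a time gave 2.22 to 4.26 for Hcrt and 1.22 to 3.35 for Pmch, with both lowest values without liraglutide replicate 2. The receptors had log2 differences of 0.27 (Hcrtr1), 0.20 (Hcrtr2) and 0.05 (Mchr1).

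With PYY3-36 + liraglutide 0 of 5 genes passed, against 0.00457% of all genes, and DESeq2 called 0. Again only Hcrt and Pmch of the 5 had an unadjusted p under 0.05 in edgeR, as did 2.53% of all genes. Hcrt was 150 ± 236 CPM (log2 difference 3.48 ± 1.33, interval 0.82 to 6.15) and was above the saline median of both batches together in 8 of 10 libraries. Pmch was 1140 ± 1830 CPM (2.81 ± 1.26, interval 0.28 to 5.34) and above that saline median of both batches in 7 of 10. Without replicate 10, the library with the highest value of both, the differences were 2.17 and 1.62. The differences were 1.40 and 1.10 within batch A and 6.08 and 4.53 within batch B. The receptors had log2 differences of 0.09 (Hcrtr1), 0.20 (Hcrtr2) and 0.28 (Mchr1). The difference between the batches was 4.72 for Hcrt (unadjusted p = 0.0473, adjusted p = 1, interaction term in edgeR).

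The 2 control groups were compared as well, since they served as references for the surgical and the hormone groups. Again 0 of 5 genes passed, against 0.0137% of all genes, and DESeq2 called 0. An unadjusted p under 0.05 in edgeR was found in 12.9% of all genes and in 1 of the 5. That gene was Hcrt, with 135 ± 187 CPM in sham and 19 ± 32.7 CPM in saline (log2 difference 3.0 ± 1.25, interval 0.50 to 5.50, adjusted p = 0.322 by edgeR). Pmch differed by 2.12 ± 1.19. The difference of Hcrt was 2.25 within batch A and 4.61 within batch B, that of Pmch 1.38 and 3.16. The low Hcrt of the saline libraries thus entered all 4 comparisons in which saline was the reference, and those comparisons share it. Of the 11 libraries with Hcrt under 10 CPM but a hypothalamus score of 3 or more, 5 were saline, among 7 saline libraries with such a score. The scores of these 5 were 3.04, 4.37, 4.95, 3.36 and 3.83 (replicates 3 and 5 to 8). The median of the 52 libraries was 4.81, and 3.04 was their lowest score. Whether the low Hcrt of saline goes with the score was not tested.

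**Figure D3:**
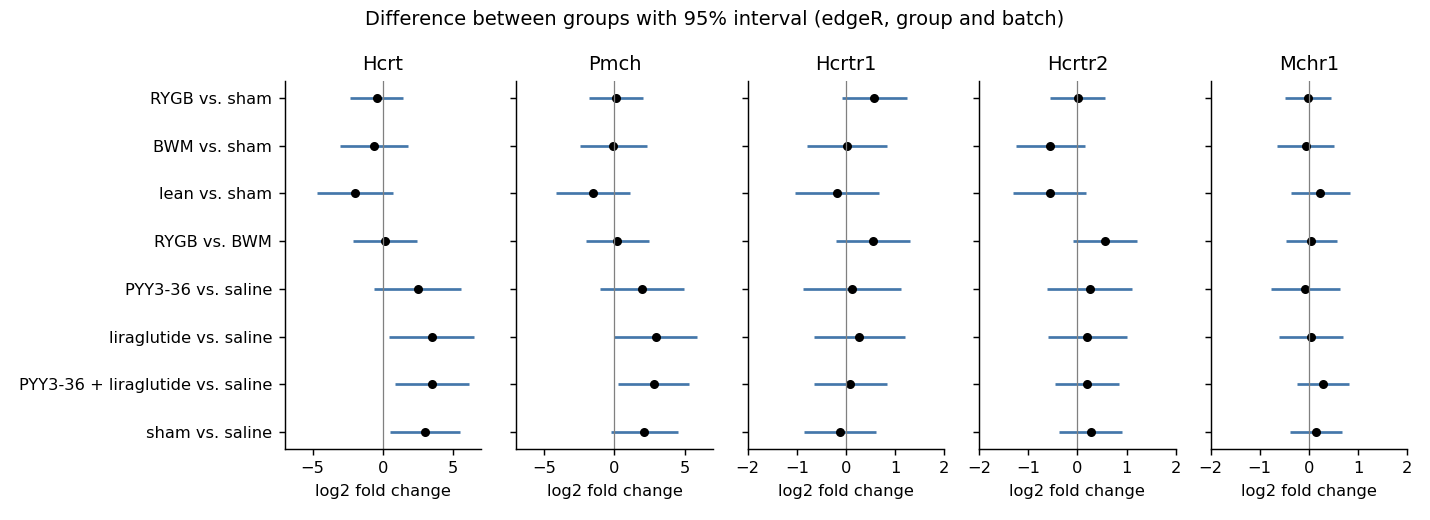
Fitted log2 difference of each gene in the 8 comparisons (points) with its 95% interval (lines), from the edgeR model with group and batch; Hcrt and Pmch have a wider axis than the receptors. No gene passed adjustment, and the intervals of Hcrt in the liraglutide, PYY3-36 + liraglutide and sham comparisons with saline exclude 0 before adjustment, as does that of Pmch with both hormones.

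Over all 8 groups at once none of the 5 genes passed the test, against 3.76% of all genes (edgeR F test). The adjusted p was 0.54 for Hcrt, 0.701 for Pmch, 0.752 for Hcrtr1, 0.797 for Hcrtr2 and 0.948 for Mchr1. The unadjusted p was at least 0.266, and DESeq2 called 0 of 5. The lowest adjusted p without the 13 libraries was that of Mchr1 (0.079). In the fitted order of the groups Hcrt ran from PYY3-36 + liraglutide through liraglutide, sham, RYGB, PYY3-36, BWM and lean to saline, and no step between neighbours passed the test. Pmch ran from liraglutide at the top to saline at the bottom, Hcrtr1 and Hcrtr2 from RYGB to lean, and Mchr1 from lean to PYY3-36. The distance between the ends was 0.76 ± 0.40 on the log2 scale for Hcrtr1, 0.57 ± 0.35 for Hcrtr2 and 0.45 ± 0.41 for Mchr1. No member passed the test between the batches (0 of 5 by edgeR, against 40.7% of all genes), and the lowest unadjusted p was 0.229, for Hcrt.

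What set the precursors apart was their spread inside the groups. After group and batch, the residual SD of log2(CPM + 1) was 3.10 for Pmch, the largest of the 21871 genes, and 2.67 for Hcrt, which ranked 5. The median gene had 0.27. Hcrtr1 had 0.71, Hcrtr2 0.57 and Mchr1 0.48. Group and batch together accounted for 21.4% of the variance of Hcrt and 17.3% of that of Pmch, against a median of 24.4% over all genes. Hcrt was under 10 CPM in 22 libraries and under 1 CPM in 9, and Pmch was under 100 CPM in 20 and under 10 CPM in 13.

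The precursors varied together from library to library. After group and batch, Hcrt and Pmch correlated with r = 0.92 (rho 0.91, n = 65), with r = 0.95 in batch A and 0.91 in batch B, and with r = 0.92 in the 52 libraries of higher hypothalamus score. In CPM, Hcrt had a median of 10.8% of Pmch, with group medians between 5.17% in saline and 14.1% in PYY3-36 + liraglutide. In the 52 libraries of higher score this share ran from 1.15% to 34.9%, while Hcrt itself ran from 0.0363 to 787 CPM. Hcrt exceeded Pmch in 2 libraries of low score, PYY3-36 replicate 2 (Hcrt 16.0 CPM, Pmch 1.42 CPM) and sham replicate 2 (5.52 and 3.9 CPM). Hcrtr1 correlated with Hcrt (r = 0.63) and Pmch (r = 0.68), and Hcrtr2 with both (0.50 and 0.52), while Mchr1 correlated inversely (-0.57 and -0.63). Within the 52 libraries the r values of the receptors with the precursors were between -0.35 and 0.41. These are descriptions of libraries that share their dissection and depth.

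**Figure D4:**
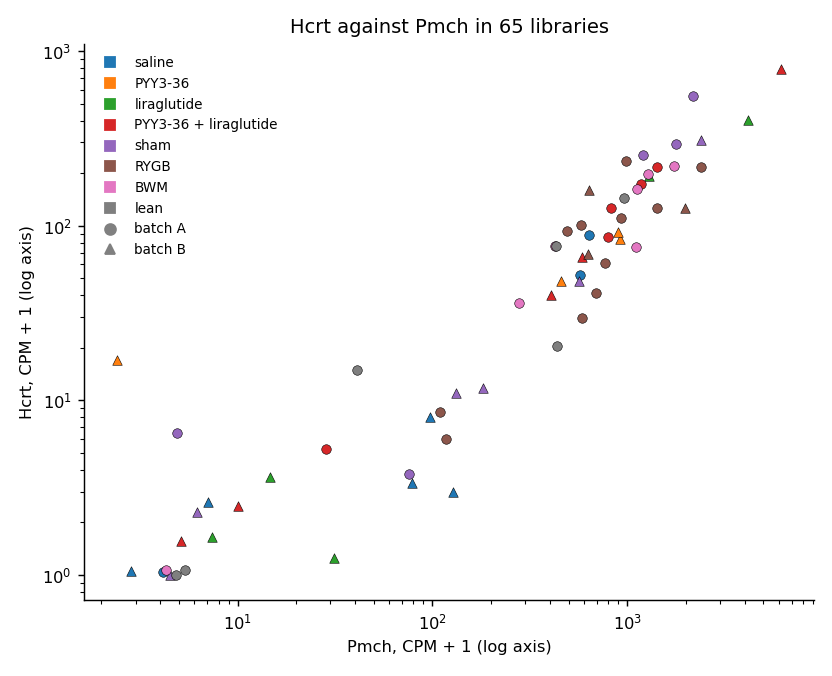
Hcrt against Pmch in each of the 65 libraries, both in CPM + 1 on log axes, with colour for group and circles and triangles for batches A and B. The libraries of all groups lie along 1 band from the lower left to the upper right (r = 0.92 after group and batch), and PYY3-36 replicate 2 lies above it at the left.

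The genes whose levels followed each member most closely were taken from 17233 genes with a mean of at least 1 CPM. For Hcrt these were Pmch (r = 0.92), Prph, which encodes the neuronal intermediate filament peripherin (0.78), Tlcd1 (0.77), the transcription factor Ebf3 (0.75) and the orphan receptor Gpr50 (0.75). For Pmch they were Hcrt, Prph (0.86), the synaptic organiser Cbln1 (0.82), the galanin receptor Galr2 (0.81) and LOC103690156 (0.81). Prph was thus near the top for both, and within the 52 libraries its r was 0.70 with Hcrt and 0.75 with Pmch.

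The receptors had other companions. Hcrtr1 was followed by Pnck (0.90), Arl10 (0.89), Cd83 (0.88), Vangl2 (0.87) and Fxyd6 (0.87). Hcrtr2 was followed by Alg2 (0.80), LOC690000 (0.78), Aff2, RGD1560784 and Arl4c (each 0.77). Mchr1 was followed by Cyfip2, of the WAVE actin-regulating complex (0.90), and by Dlg3, Phyhip and Cap2 (each 0.89). No member was among the nearest genes of another, apart from the pair Hcrt and Pmch.

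Other genes of the same neurons were described from lists. Of 8 genes linked to orexin neurons (Pdyn, Nptx2, Lhx9, Igfbp3, Ebf2, Qrfp, Scg2 and Slc17a6, with 9 rows because Qrfp has 2), none passed in any of the 8 comparisons. In RYGB vs. sham, where 13% of all genes passed, their median log2 difference was 0.39, against -0.02 for all genes. Scg2, a granin of dense-core vesicles and the most abundant of the list with a mean of 820 CPM, differed by 0.12 ± 0.26. Of 6 genes linked to MCH neurons (Cartpt, Tacr3, Nucb2, Gad1, Gad2 and Slc17a6), Tacr3 rose in RYGB vs. sham, where 6.52% of all genes rose. No other gene of this list passed in any comparison with all libraries. Tacr3, the receptor of neurokinin B, was 1.54 ± 0.29 higher on the log2 scale (adjusted p = 0.00115 by edgeR), and 1.38 ± 0.32 higher without the 13 libraries (adjusted p = 0.00409). Without these libraries 2 of the 6 passed, as did 3173 of 21919 genes. Gad1, the most abundant of them with a mean of 405 CPM, differed by -0.27 ± 0.20.

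Of 24 genes that carry the signal of these receptors, 4 rose and none fell in RYGB vs. sham, where 6.52% of all genes rose. These were Gnaq, the alpha subunit of Gq (1.18 ± 0.27, adjusted p = 0.00429), its relative Gna11 (0.62 ± 0.20, adjusted p = 0.034), the IP3 receptor Itpr2 (0.50 ± 0.15, adjusted p = 0.0215) and the Gi subunit Gnai3 (0.25 ± 0.09, adjusted p = 0.0439, all by edgeR). Without the 13 libraries 13 of the 24 rose, where 8.53% of all genes did, Gnaq by 1.70 ± 0.32 and Gna11 by 0.99 ± 0.22. Of these 13, Prkcd (-0.90 with all libraries, 1.16 without the 13), Slc8a2 (-0.08 and 0.65), Itpr1 (-0.06 and 0.72), Plcb1 (-0.04 and 0.63) and Prkca (-0.12 and 0.36) changed sign, and these 5 are named for that after their values were seen. Gnai3 then no longer passed (0.23 ± 0.09, adjusted p = 0.0811), and the list median moved from 0.18 to 0.36. In the other 7 comparisons with all libraries, none of the 24 passed. Gnaq differed there by 1.01 in lean vs. sham, 0.72 in BWM vs. sham and -0.91 in sham vs. saline (adjusted p = 0.249, 0.344 and 0.232 by edgeR), comparisons that share the sham libraries. Gnao1, the most abundant with a mean of 363 CPM, differed by 0.12 ± 0.11 in RYGB vs. sham with all libraries.

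Of 10 genes for the processing and release of neuropeptides, Cadps rose in RYGB vs. sham, where 6.52% of all genes rose. Cadps, which primes dense-core vesicles for release, differed by 0.75 ± 0.24 (adjusted p = 0.0325, and 0.85 ± 0.27 with adjusted p = 0.0308 without the 13 libraries, by edgeR). None of the 10 passed in the other comparisons. Cpe, the carboxypeptidase that trims prohormones, was the most abundant at a mean of 1990 CPM and differed by -0.25 ± 0.11 in RYGB vs. sham (adjusted p = 0.11). None of 7 genes of the histamine system, a target of orexin neurons, passed in any comparison with all libraries. In RYGB vs. sham without the 13, 2 of 7 rose, where 8.53% of all genes did. Maob, the most abundant at 127 CPM, differed by 0.32 ± 0.20 with all libraries.

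Genes of neighbouring regions differed between the same groups. Of the 10 hypothalamus genes none passed in RYGB vs. sham, where 13% of all genes did. Their median log2 difference was 0.64, against -0.02 for all genes, and 0.18 without the 13 libraries. The 6 cortex genes had a median of -0.80, with none called, and of 0.13 without the 13 libraries. Of 6 genes of the posterior hypothalamus and subthalamic area, Foxa1 (3.04 ± 0.97, adjusted p = 0.0312 by edgeR) and Lmx1a (1.90 ± 0.66, adjusted p = 0.0466 by edgeR) rose in RYGB vs. sham, where 6.52% of all genes rose. Of 6 thalamus genes Tnnt1 fell there (-1.09 ± 0.38, adjusted p = 0.0468 by edgeR). Without the 13 libraries these 3 no longer passed (adjusted p of 0.0782, 0.157 and 0.317). Of 6 choroid plexus genes Kl rose in RYGB vs. sham (2.47 ± 0.46) and in BWM vs. sham (2.31 ± 0.53), where 6.52% and 0.311% of all genes rose. Of 8 pituitary genes, 5 fell in RYGB vs. BWM, where 0.334% of all genes fell. Of 5 habenula genes tested, Gpr151 fell in PYY3-36 + liraglutide vs. saline (-7.73 ± 1.29, adjusted p = 0.00266, and 0.0564 without the 13 libraries) and Nwd2 in sham vs. saline (-1.79 ± 0.34, adjusted p = 0.0234, all by edgeR). In these comparisons 0.00457% and 0.0137% of all genes passed. In saline replicates 5 and 7 the habenula score, the mean log2(CPM + 1) of the 5 habenula genes, was 4.72 and 5.54, against 1.03 to 1.46 in the other 6 saline libraries and at most 1.95 in sham and 1.5 with both hormones. Of 6 meninges genes none passed. The part of such differences in tissue in the levels of the 5 genes was not tested.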

How the data were processed

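Per the labels and methods of the study, the authors made strand-specific libraries from poly-A RNA, trimmed reads with cutadapt (1.16 in the submitters' processing notes, beside later versions in the methods), mapped them with STAR 2.7.2b to Rnor_6.0 and counted RefSeq exons with featureCounts 1.6.4, dividing reads with several places or genes. What was deposited are estimated counts, so fractions occur, with no normalization, and they were rounded here. Group and batch came from the labels, and all 65 libraries were assigned. Counts on genes ran from 20041010 to 36539941 per library.

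All libraries entered 1 model in edgeR 4.0.16 (R 4.3.3) with group and batch, TMM scaling, filterByExpr (minimum count 10, minimum total 15) and the robust quasi-likelihood test, in place of the DESeq2 of the study. A gene was called at a Benjamini-Hochberg adjusted p under 0.05. CPM are TMM-scaled. The alternatives were DESeq2 1.42.0, its size factors, no filter, no batch term, each batch alone, tissue scores as covariates, a replicate block and each library left out. Scripts were tested on simulated data. The model treats animals as independent, and no library pair of a group agreed within sampling noise (lowest chi-square per degree of freedom 14.2).

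The members and lists were chosen with earlier results of these data known. Besides the members, named genes were the 5 nearest in correlation to each member, list genes that were called (at most 4 per list and comparison) and the most abundant gene of a list. A gene near Mchr1 and a list of striatum genes are not reported here. Replicate numbers were checked for pairing by correlating deviations from group and batch. For liraglutide vs. saline all 5 same-numbered pairs had r over 0.1 (0.28 to 0.65), which counts as paired by the rule used. The labels give no shared origin, and saline replicates 1 to 3 belonged to batch A while all liraglutide animals belonged to batch B. Only 2 of the 5 liraglutide libraries correlated most closely with the saline library of their own number. This comparison was therefore not read as paired. The other comparisons were not paired by the rule.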

Additional observations from a re-analysis of the deposited data

Results flagged for a closer look

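Among 30 sets of 1 gene in 1 group of 4 to 10 libraries, 4 held a highest library far from the nearest of the others by Dixon's criterion. Chance meets this criterion in about 1 of 20 sets of normally distributed values. It was applied to CPM without a log scale, and Hcrt and Pmch spanned orders of magnitude within groups. The 1 in 20 is therefore no reference for the 4 sets. Hcrt in PYY3-36 + liraglutide replicate 10 was 787 CPM, with the next library at 215 CPM. Pmch in the same library was 6170 CPM, with the next at 1420 CPM. Mchr1 in saline replicate 4 was 13.3 CPM, with the next at 8.57 CPM, and in BWM replicate 1 it was 21.5 CPM, with the next at 7.19 CPM. The last 2 libraries had hypothalamus scores of 1.09 and 0.86 and Hcrt of 0.0452 and 0.0649 CPM.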

How the results depend on the processing

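All 40 log2 differences of the 5 genes failed the threshold under every alternative run, and 328 of 375 alternative values kept their sign. The 47 that changed sign follow, and the cause was not tested. Within batch A the sign changed in PYY3-36 + liraglutide vs. saline (Hcrtr1 -0.084, Hcrtr2 -0.30), RYGB vs. BWM (Hcrt -0.23, Pmch -0.036) and RYGB vs. sham (Hcrtr2 -0.22, Pmch -0.33). Within batch B the sign changed in RYGB vs. sham (Hcrt 0.89) and sham vs. saline (Hcrtr1 0.15). With the hypothalamus score as a covariate the sign changed in BWM vs. sham (Hcrtr1 -0.01, Pmch 0.28), PYY3-36 + liraglutide vs. saline (Hcrtr1 -0.041), PYY3-36 vs. saline (Mchr1 0.031), RYGB vs. BWM (Hcrt -0.13, Pmch -0.015), RYGB vs. sham (Hcrtr2 -0.13, Mchr1 0.35) and lean vs. sham (Hcrtr1 0.056). Without a batch term the sign changed in BWM vs. sham (Pmch 0.14), RYGB vs. BWM (Hcrt -0.15) and RYGB vs. sham (Hcrtr2 -0.01). Without the filter the sign changed in RYGB vs. sham (Mchr1 0.008). With pituitary, choroid plexus and meninges scores as covariates the sign changed in BWM vs. sham (Hcrtr1 -0.21, Mchr1 0.39, Pmch 0.29), PYY3-36 vs. saline (Hcrtr1 -0.004, Mchr1 0.36), RYGB vs. BWM (Mchr1 -0.089), RYGB vs. sham (Hcrt 0.018, Mchr1 0.30) and sham vs. saline (Mchr1 -0.036). Without the 13 libraries of low score the sign changed in BWM vs. sham (Hcrtr1 -0.20), PYY3-36 vs. saline (Mchr1 0.082), RYGB vs. BWM (Hcrt -0.14, Pmch -0.031), RYGB vs. sham (Hcrtr2 -0.40, Mchr1 0.36, Pmch -0.43), liraglutide vs. saline (Mchr1 -0.037) and sham vs. saline (Hcrtr1 0.26, Mchr1 -0.23). With the replicate number as a block the sign changed in PYY3-36 + liraglutide vs. saline (Hcrtr1 -0.043), RYGB vs. BWM (Hcrt -0.94, Pmch -0.69), RYGB vs. sham (Hcrtr2 -0.17, Mchr1 0.33, Pmch -1.29) and liraglutide vs. saline (Mchr1 -0.23). The block changed no call of a member. Leaving out 1 library at a time changed the sign of 60 of 715 values and no call, in BWM vs. sham (Pmch -0.37 to 0.29, Hcrtr1 -0.17 to 0.23, Mchr1 -0.62 to 0.092), PYY3-36 + liraglutide vs. saline (Hcrtr1 -0.002 to 0.28), PYY3-36 vs. saline (Hcrtr1 -0.098 to 0.28, Mchr1 -0.14 to 0.11), RYGB vs. BWM (Hcrt -0.062 to 0.45, Mchr1 -0.052 to 0.60, Pmch -0.025 to 0.49), RYGB vs. sham (Mchr1 -0.13 to 0.15, Pmch -0.18 to 0.65, Hcrt -0.67 to 0.12, Hcrtr2 -0.089 to 0.20), lean vs. sham (Hcrtr1 -0.44 to 0.026), liraglutide vs. saline (Mchr1 -0.081 to 0.23, Hcrtr2 -0.019 to 0.46) and sham vs. saline (Hcrtr1 -0.29 to 0.047). Calls over all genes moved more. RYGB vs. sham had 2853 calls, 5587 without a batch term, 529 within batch A and 1618 with the block. BWM vs. sham had 70, with 236 by DESeq2, 346 within batch A, 2183 without a batch term, 147 with the hypothalamus score, 3 with the tissue scores and 1 with the block. RYGB vs. BWM had 75, with 13 within batch A, 137 without the 13 libraries, 2 with the tissue scores and 0 with the block. The test over all groups had 822, with 1978 by DESeq2, 4581 without a batch term, 1310 with the hypothalamus score and 111 with the block. Lean vs. sham had 0, with 4 by DESeq2, 2339 without a batch term, 7 with the tissue scores and 138 without the 13 libraries. Sham vs. saline had 3, with 25 by DESeq2, 5 without a batch term, 5 with the hypothalamus score, 9 without the 13 libraries, and 0 within batch A and with the block. PYY3-36 + liraglutide vs. saline had 1, with 9 by DESeq2, and PYY3-36 and liraglutide vs. saline had 0, with 5 and 2. The hypothalamus score and the removal of the 13 libraries were chosen after seeing the data. The test over all groups was not run within a batch or with libraries left out. BWM and lean could be compared only in batch A, PYY3-36 and liraglutide only in batch B. The biological coefficient of variation was 1.56 for Hcrt and 1.43 for Pmch, against 0.383 to 0.533 for the receptors.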

Other observations

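The Hcrt level of PYY3-36 replicate 2 was out of proportion to its Pmch level. Its Hcrt was 16.0 CPM, against a median of 0.567 CPM over the 13 libraries of low hypothalamus score, and its Pmch of 1.42 CPM was the lowest of the 65. The cortex score of this library, the mean log2(CPM + 1) of 6 cortex genes, was 5.57. In RYGB replicate 6, also of low score, Hcrt was 92.7 CPM and Pmch 487 CPM, with a cortex score of 6.55. Lean replicate 2, saline replicate 4 and sham replicate 2 had cortex scores of 6.01, 5.91 and 6.52. Their Hcrt was 0, 0.0452 and 5.52 CPM. A link between the cortex score and Hcrt in these libraries was not tested.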
